A study of Mus musculus with 65 samples.

Results

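Of the 13808 DMC1 hotspots deposited for wild-type mouse testis, 13314 lay on chromosomes 1 to 19. Of these, 665 overlapped a MEI4 peak of Hormad1KO testis by at least 1 bp and overlapped no MEI4 peak of Spo11KO or wild-type testis. They were thus chosen by the measured MEI4 and wild-type DMC1 peak positions, and are called Hormad1KO-only hotspots here. The name refers to these MEI4 lists alone, as 250 of the 665 also had MEI4 in Iho1KO. MEI4 peaks of Hormad1KO lay at 27.1% of autosomal hotspots, those of Spo11KO at 27.8% and those of the wild type at 11%. The same 3 MEI4 lists placed every other autosomal hotspot in one of 4 classes. MEI4 in Spo11KO without Hormad1KO or the wild type gave 752 Spo11KO-only hotspots, MEI4 in both knockouts without the wild type gave 1571, wild-type MEI4 gave 1465, and none of the 3 lists gave 8861. The last are called hotspots without MEI4 here, although 64 of them had MEI4 in Iho1KO.

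Meiotic recombination begins with programmed DNA double-strand breaks. The DNA-binding methyltransferase PRDM9 marks the hotspots, SPO11 with its partner TOPOVIBL cuts there, and MEI4, REC114 and IHO1 form the complex that SPO11 activity needs. In current models this complex sits on the chromosome axis, a protein core that includes the HORMA-domain protein HORMAD1 and the coiled-coil protein SYCP3, and hotspots on chromatin loops are brought to it. DMC1, a strand-exchange recombinase, loads on the resected ends after cutting, so its immunoprecipitation maps breaks. HORMAD1 promotes break formation and the loading of IHO1 on the axis. CTCF is an architectural DNA-binding protein of chromatin loops.

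Chromatin of whole testis was immunoprecipitated for PRDM9, MEI4, IHO1, HORMAD1, SYCP3, CTCF or DMC1 and sequenced, 65 samples in all with 1 input. Per the labels, 1.5-day-old male pups were fed WIN 18,466, described as an inhibitor of retinoic acid, for 7 to 10 days, were injected once with retinoic acid, and were sampled 8 days later, when leptotene and zygotene spermatocytes made up 80 to 95% of the testis. The genotypes used here were the wild type (C57BL/6JCrl, the strain given for all samples), B6;129P2-Prdm9tm1Ymat/J (Prdm9KO), Spo11tm1Mjn (Spo11KO), Mei4tm1Bdm (Mei4KO), Iho1tm1.2Atot (Iho1KO) and Hormad1tm1.2Atot (Hormad1KO). All groups shared the feeding and injection, and the labels do not say whether animals were pooled. Each antibody and genotype used here had 2 samples (1 for SYCP3 in Prdm9KO, Spo11KO and Iho1KO) and 1 deposited list. Whether a list pools its samples is not stated, and no value below has a replicate check. The 2 DMC1 lists give a value per hotspot, the authors' signal in an unstated unit, used here for ranking within a list. The MEI4, IHO1, HORMAD1 and SYCP3 lists give positions only. A difference between 2 classes was called where its Newcombe 95% interval excluded 0, and intervals cover counting error only, with hotspots treated as independent. Sequencing depth is unknown.

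Sequence could be read for hotspots that fall at gene starts. The RefSeq promoter windows (GRCm38.p6, the same assembly as the mm10 of the lists) touched 16 of the 665 hotspots, and for 3 of these the hotspot midpoint lay in the 250 bases before the start. These 3 are printed 5′ to 3′ on the gene's strand because they show the DNA at the centre of members, with the 21 bases around the midpoint in capitals. Cyp1a1 encodes a cytochrome P450 of xenobiotic metabolism, Zfp131 a zinc-finger transcription factor and Pnliprp2 a pancreatic lipase-related protein. The windows lie at chr9:57697363-57697612 (plus strand), chr13:119790733-119790982 (minus strand) and chr19:58759473-58759722 (plus strand).
Cyp1a1: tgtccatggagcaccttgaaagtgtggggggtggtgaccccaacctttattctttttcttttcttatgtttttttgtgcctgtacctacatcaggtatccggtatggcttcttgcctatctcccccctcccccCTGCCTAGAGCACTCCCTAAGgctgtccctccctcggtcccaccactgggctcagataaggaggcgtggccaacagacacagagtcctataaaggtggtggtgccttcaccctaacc
Zfp131: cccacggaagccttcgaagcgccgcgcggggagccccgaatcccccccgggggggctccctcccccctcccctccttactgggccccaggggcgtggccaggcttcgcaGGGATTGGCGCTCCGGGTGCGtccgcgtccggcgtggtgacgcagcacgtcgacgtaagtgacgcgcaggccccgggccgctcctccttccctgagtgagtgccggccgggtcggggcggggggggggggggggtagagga
Pnliprp2: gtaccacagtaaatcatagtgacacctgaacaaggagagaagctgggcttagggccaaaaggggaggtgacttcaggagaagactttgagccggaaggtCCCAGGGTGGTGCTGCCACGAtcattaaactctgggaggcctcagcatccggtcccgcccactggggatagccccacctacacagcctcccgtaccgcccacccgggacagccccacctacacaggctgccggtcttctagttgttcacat
The Cyp1a1 hotspot had a wild-type DMC1 value of 63.5, the Zfp131 hotspot 76 and the Pnliprp2 hotspot 118.5, all below the median of the Hormad1KO-only hotspots. Of the 3, the Zfp131 hotspot was also in the DMC1 list of Hormad1KO, with a value of 75.5. It lies 0.530 Mb from the distal end of chromosome 13. Bases G and C made up 76.4% of its 250 printed bases, against 53.6% for Cyp1a1, 58.4% for Pnliprp2 and a median of 52.4% over the same 250 bases of all 32851 windows.

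The overlaps that define membership were deep. The smallest was 416 bp, the median 1430 bp, and all 665 covered at least 50% of the shorter interval. The MEI4 peak and the hotspot had midpoints within 250 bp of each other at 539 of the 665 (81.1%). The MEI4 peaks at these hotspots were narrower (median 1482 bp) than the Hormad1KO MEI4 list as a whole (1726 bp). The 3 members with the least overlap, 416, 513 and 569 bp, had wild-type DMC1 values of 3524, 532.5 and 88. Just outside the rule, 3 hotspots with no MEI4 lay 592, 701 and 896 bp from a Hormad1KO MEI4 peak, with values of 71.5, 51 and 107. At the other edge, 2 members had a Spo11KO or wild-type MEI4 peak within 1 kb, at 321 and 987 bp, and the median gap to such a peak was 162334 bp.

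The Hormad1KO-only hotspots were of middling strength in the wild type. Their wild-type DMC1 values ran from 20 to 18957.5, with quartiles of 128, 223.5 and 402. The median was 386.25 for Spo11KO-only hotspots, 644 for hotspots with MEI4 in both knockouts, 1500.5 for those with wild-type MEI4, 73 for those without MEI4 and 128 for all autosomal hotspots. Each class with a MEI4 call in a knockout and none in the wild type thus ranked below the class with wild-type MEI4. The latter may hold knockout calls too. The Hormad1KO-only hotspots were the weakest by median among the 4 classes with MEI4. With all autosomal hotspots divided into 4 equal classes from weak to strong, 3.76%, 21.7%, 51.9% and 22.7% of the Hormad1KO-only hotspots were in the respective class, against 0.399%, 7.45%, 46.7% and 45.5% of the Spo11KO-only hotspots. Membership was decided on the same list of hotspots, so these values describe the classes and were not tested.

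**Figure D1:**
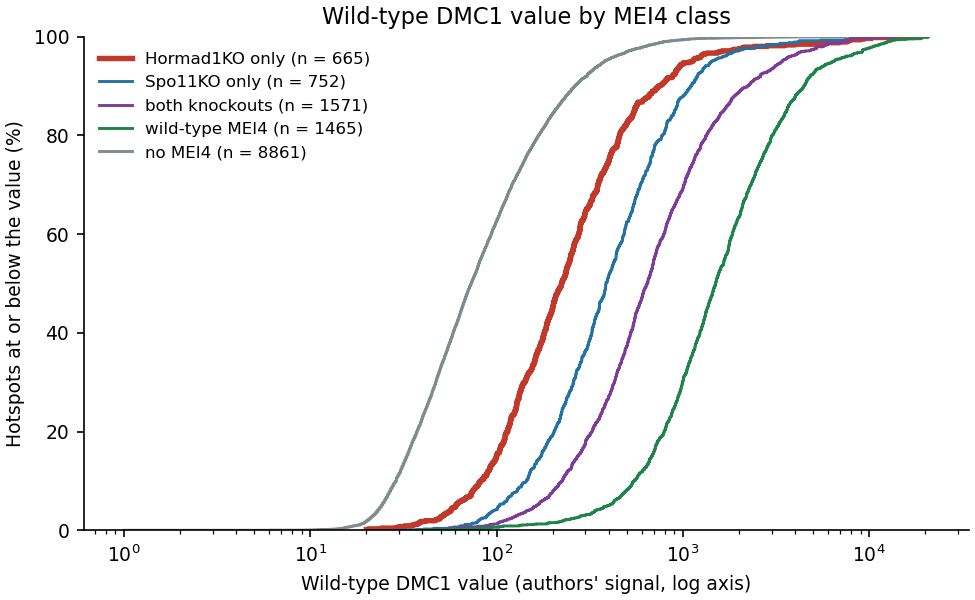
Cumulative share of hotspots (y axis, %) at or below a wild-type DMC1 value (x axis, the authors' signal on a log scale) for the 5 MEI4 classes; the thick line is the 665 Hormad1KO-only hotspots. Their line lies between those of hotspots without MEI4 (median 73) and Spo11KO-only hotspots (median 386.25), with a median of 223.5.

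A DMC1 peak in Hormad1KO was found at most of these hotspots. The Hormad1KO DMC1 list held 34.2% of all autosomal hotspots and 477 of the 665 Hormad1KO-only hotspots (71.7%, Wilson 95% interval 68.2 to 75). It held 336 of the 752 Spo11KO-only hotspots (44.7%), a difference of 27 percentage points (22 to 31.9), although the Spo11KO-only hotspots had the higher wild-type values. Compared at the same wild-type strength, by standardising over 10 equal classes of the wild-type DMC1 value, the difference was 39.2 points (34.2 to 44.1). MEI4 and DMC1 in Hormad1KO come from separate libraries of the same genotype. Whether the same animals gave both is not stated.

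The difference was present in each class of strength that both groups filled with at least 20 hotspots. In class 5, counted from the weakest, 56 of 89 Hormad1KO-only hotspots (62.9%) and 7 of 35 Spo11KO-only hotspots (20%) were in the Hormad1KO DMC1 list. The shares were 66.1% and 24.7% in class 6, 73.5% and 27.3% in class 7, 79.4% and 48.0% in class 8, and 93.4% and 60.9% in class 9. In class 10, the strongest, all 27 Hormad1KO-only hotspots and 47 of 55 Spo11KO-only hotspots (85.5%) were in it. Hotspots with MEI4 in both knockouts were in the list more often than the Hormad1KO-only hotspots (89.6%, a difference of -17.8 points, -21.6 to -14.2). This fell to -5.56 points (-10.6 to -0.522) at the same wild-type strength. Hotspots without MEI4 were in the list at 10.9%, which is 60.9 points (57.3 to 64.2) below the Hormad1KO-only hotspots and 44.0 points (40.4 to 47.6) below at the same strength.

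**Figure D2:**
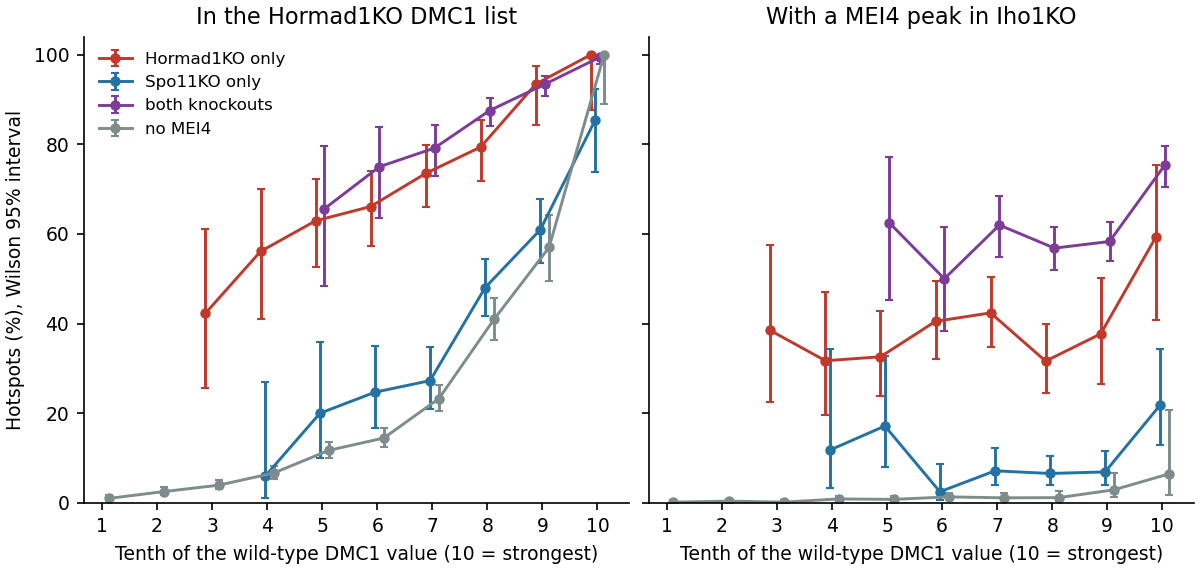
Share of hotspots (y axis, %, bars are Wilson 95% intervals) in the Hormad1KO DMC1 list (left) and with an Iho1KO MEI4 peak (right) in each of 10 equal classes of the wild-type DMC1 value (x axis, 10 the strongest), for 4 MEI4 classes; points with under 10 hotspots are left out. In classes 5 to 9 the red points (Hormad1KO only) lie above the blue points (Spo11KO only) in both panels, as in class 7, with 73.5% against 27.3% on the left and 42.4% against 7.14% on the right.

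The rank order of the DMC1 values also differed between the classes. At the 477 Hormad1KO-only hotspots in both lists the Hormad1KO value ran from 14 to 8644.5, with a median of 56. Since the 2 lists share no stated scale, each of the 4548 autosomal hotspots in both was given its percentile rank within each list (100 the strongest). The median rank of the Hormad1KO-only hotspots was 23.3 in the wild type and 39.7 in Hormad1KO. The median change was 12.1 points (quartiles -2.51 and 31.3), and 336 of 477 (70.4%) ranked higher in Hormad1KO. The Spo11KO-only hotspots moved the other way, from a median rank of 44.5 to 25.5, with a median change of -16.6 points and 83 of 336 (24.7%) ranked higher. Hotspots with MEI4 in both knockouts, with wild-type MEI4 and without MEI4 had median changes of 0.978, -1.75 and 0.858. Of these classes, in the same order, 51.3%, 43.7% and 52.2% ranked higher in Hormad1KO, and 49.3% of all 4548 did.

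A weak hotspot that is present in both lists has more room to rise than a strong one, so the ranks were also set side by side within classes of wild-type strength. In class 8, 108 Hormad1KO-only hotspots had a median change of 8.48 points and 66 (61.1%) ranked higher, against -14.9 points and 23 of 110 (20.9%) for Spo11KO-only hotspots. In class 9 the median changes were -5.96 points over 57 hotspots and -30.7 over 106. Class 10 gave -0.407 points over 27 and -32.6 over 47. In these 3 classes the Hormad1KO-only hotspots thus had the higher median change of the pair. In classes 5, 6 and 7 their median changes were 27.6, 21.4 and 11.7 points, against 22.7, -0.682 and 4.56 over 7, 20 and 42 Spo11KO-only hotspots. Hotspots with MEI4 in both knockouts changed by 9.31, -4.67 and -7.38 points in classes 8, 9 and 10, and those without MEI4 by -13, -25.0 and -24.3. In classes 5, 6 and 7 the both-knockout hotspots changed by 27.1, 23.1 and 22.8 points, and those without MEI4 by 10.3, 5.19 and -4.93. In classes 5 to 9 the both-knockout changes were thus near or above those of the Hormad1KO-only hotspots, and in class 10 they were below. The ranks were described and not tested.

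**Figure D3:**
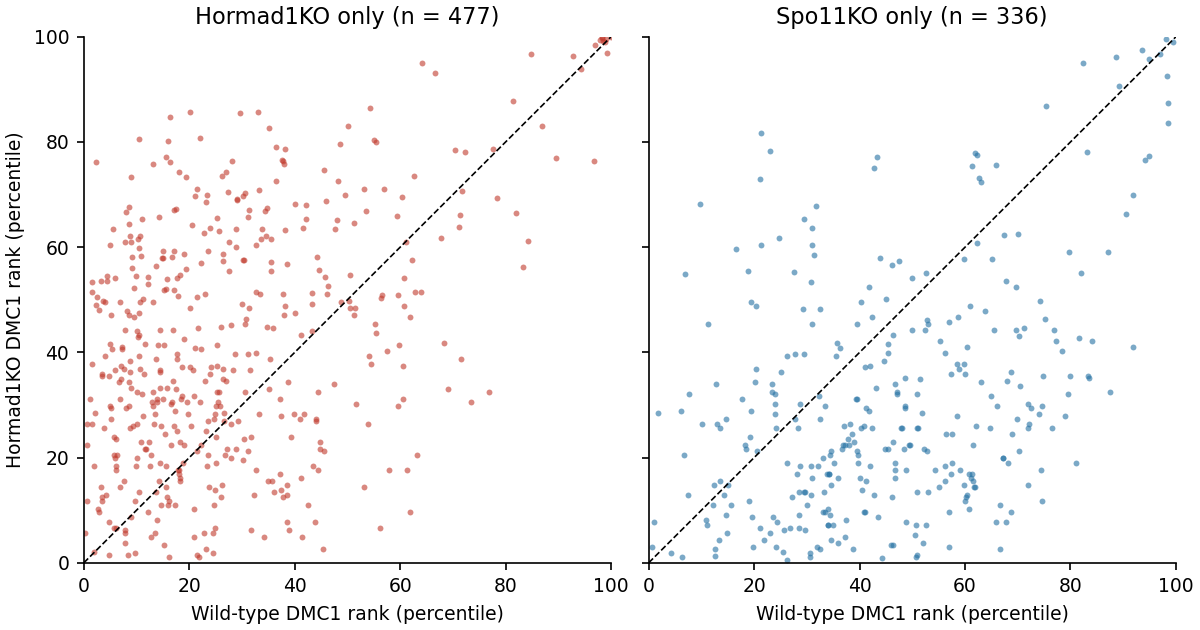
Percentile rank of the DMC1 value in Hormad1KO (y axis) against that in the wild type (x axis) for the 477 Hormad1KO-only (left) and 336 Spo11KO-only (right) hotspots in both DMC1 lists; each point is a hotspot and the dashed line marks equal ranks. On the left 336 points (70.4%) lie above the line and on the right 83 (24.7%). Over all 4548 autosomal hotspots in both lists 49.3% ranked higher in Hormad1KO.

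The 3 hotspots with the largest rises of rank lay in genes. A hotspot in Trip12, which encodes a ubiquitin ligase (chr1:84814931-84815978), had values of 62 in the wild type and 202.5 in Hormad1KO and went from rank 2.36 to 76.1. One in Rnf212b, a gene whose product acts in meiotic crossover formation (chr14:54840885-54842544), had 132.5 and 261.5 and went from 10.5 to 80.6. One in Atf6, which encodes a transcription factor of the unfolded protein response (chr1:170828333-170830504), had 190 and 342.5 and went from 16.3 to 84.7. All 3 were weak in the wild type, below the median of 223.5. The Trip12 and Rnf212b hotspots also had MEI4 in Iho1KO, and the Atf6 hotspot had IHO1 in Hormad1KO.

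The 3 largest falls were at hotspots outside coding genes, 190.129, 400.9 and 9.835 kb from the genes named below, in that order. A hotspot nearest Malrd1 (chr2:15335247-15337453) had values of 942 and 24 and went from rank 61.9 to 9.72. One nearest Arid1b, which encodes a subunit of the BAF chromatin remodeller (chr17:4592449-4594345), had 795 and 21 and went from 56.2 to 6.67. One nearest the cyclin-dependent kinase gene Cdk14 (chr5:5389100-5391071) had 1534.5 and 45.5 and went from 76.9 to 32.5. Of these 3, the Cdk14 hotspot had a peak in another list, MEI4 in Iho1KO.

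MEI4 was also mapped without IHO1, its partner in the break-promoting complex, and without PRDM9. Iho1KO MEI4 peaks lay at 19% of autosomal hotspots and at 250 of the 665 Hormad1KO-only hotspots (37.6%, 34.0 to 41.3). The share was 8.24% of Spo11KO-only hotspots, a difference of 29.3 points (25.1 to 33.5), 61.8% of those with MEI4 in both knockouts (-24.2, -28.5 to -19.8) and 0.722% of those without MEI4 (36.9, 33.3 to 40.6). At the same wild-type strength the difference from Spo11KO-only hotspots was 29.4 points (24.8 to 34.0). With the wider 50% of the Iho1KO MEI4 peaks alone it was 9.57 points (6.82 to 12.5). MEI4 peaks of Prdm9KO lay at 0.0601% of autosomal hotspots and at 1 Hormad1KO-only hotspot. The members with MEI4 in Iho1KO were in the Hormad1KO DMC1 list at 89.2% (223 of 250), and the others at 61.2%. Over all autosomal hotspots these shares were 95.8% and 19.7%.

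IHO1 peaks differed between Hormad1KO-only and Spo11KO-only hotspots in opposite directions in the 2 knockouts. MEI4 calls in these same 2 knockouts defined the 2 classes, so the directions may follow from the rule, which was not tested. In Hormad1KO, IHO1 peaks lay at 12.7% of autosomal hotspots and at 86 of the 665 Hormad1KO-only hotspots (12.9%, 10.6 to 15.7), against 2.53% of Spo11KO-only hotspots, a difference of 10.4 points (7.69 to 13.3). In Spo11KO, IHO1 peaks lay at 14.6% of autosomal hotspots and at 20 Hormad1KO-only hotspots (3.01%), against 22.9% of Spo11KO-only hotspots, a difference of -19.9 points (-23.2 to -16.6). The IHO1 peaks of the 2 knockouts were also counted at the same sites. Of the 665 hotspots, 12 had both, 74 had IHO1 in Hormad1KO without Spo11KO, 8 had the reverse and 571 had neither. For the 752 Spo11KO-only hotspots the counts in the same order were 9, 10, 163 and 570, and for the 13314 autosomal hotspots 1197, 490, 742 and 10885. IHO1 in Hormad1KO was thus found at 60% of the 20 members with IHO1 in Spo11KO, against 61.7% over all autosomal hotspots with it. With the wider 50% of the peaks of each IHO1 list, the differences were 4.95 (3.08 to 7.09) and -5.94 points (-8.15 to -3.86).

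Even so, a share of 12.9% was near the background of 12.7%, and the hotspots with MEI4 in both knockouts had IHO1 in Hormad1KO at 36.3% (a difference of -23.4 points, -26.8 to -19.8, and -7.47 at the same wild-type strength). For IHO1 in Spo11KO that class stood at 40.2% (-37.2 points, -39.8 to -34.3, and -18.9 at the same strength). Hotspots without MEI4 had IHO1 at 0.203% in Hormad1KO and 0.621% in Spo11KO. Within the Hormad1KO-only hotspots, IHO1 in Hormad1KO lay at 60 of the 250 with MEI4 in Iho1KO (24%) and at 6.27% of the others, against 60.1% and 1.53% over all autosomal hotspots. Of the 86 with IHO1 in Hormad1KO, 80 (93%) were in the Hormad1KO DMC1 list, against 68.6% of the rest; over all autosomal hotspots the shares were 97.9% and 24.9%.

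Wild-type IHO1 peaks lay at 4.08% of autosomal hotspots and at 13 Hormad1KO-only hotspots (1.95%). The share in Spo11KO-only hotspots was 2.26% and the interval of the difference, -1.86 to 1.30 points, included 0. IHO1 peaks of Prdm9KO (background 0.15%) and Mei4KO (0.293%) lay at 1 and 2 of the 665. In the 5 IHO1 lists together, 97 Hormad1KO-only hotspots (14.6%) had a peak, compared with 18.8% of all autosomal hotspots, 189 Spo11KO-only hotspots (25.1%), 54.0% of those with MEI4 in both knockouts, 86.3% of those with wild-type MEI4 and 1.15% of those without MEI4.

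Axis proteins were rarely found at these hotspots. HORMAD1 peaks lay at 13 of the 665 in the wild type (1.95%, background 4.66%), 10 in Spo11KO (1.50%, background 5.3%), 7 in Mei4KO (1.05%, background 2.04%), 4 in Iho1KO (0.602%, background 1.43%) and 1 in Prdm9KO (background 0.391%). SYCP3 peaks lay at 20 in the wild type (3.01%, background 7.56%), 19 in Iho1KO (2.86%, background 6.56%), 12 in Spo11KO (1.8%, background 5.95%), 6 in Hormad1KO (0.902%, background 1.46%) and 4 in Mei4KO (0.602%, background 1.11%). No Hormad1KO-only hotspot had an SYCP3 peak in Prdm9KO (background 1.1%), which allows a share of up to 0.574% by the Wilson interval. In any of these 11 lists, 39 Hormad1KO-only hotspots (5.86%) had a peak, against 17.8% of all autosomal hotspots, 82 Spo11KO-only hotspots (10.9%), 22.5% of those with MEI4 in both knockouts, 62.3% of those with wild-type MEI4 and 11.1% of those without MEI4. The lists differed from hotspots without MEI4 in both directions. Wild-type HORMAD1 (0.485% without MEI4; 1.47 points, 0.643 to 2.84) and wild-type SYCP3 (0.339%; 2.67, 1.61 to 4.26) were more frequent at the members. So were HORMAD1 in Spo11KO and SYCP3 in Hormad1KO. SYCP3 was less frequent at the members in Iho1KO (7.93% without MEI4) and Prdm9KO (1.49%). These differences were not compared at the same wild-type strength.

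Against Spo11KO-only hotspots, HORMAD1 peaks were fewer in Spo11KO (1.50% against 4.52%), Mei4KO (1.05% against 3.32%) and Iho1KO (0.602% against 2.13%). Each of these 3 calls was lost under at least 1 alternative. SYCP3 was fewer in the wild type (3.01% against 5.19%) and more frequent in Iho1KO (2.86% against 1.06%). Both SYCP3 calls were lost when the wild-type strength was made equal, with -0.33 (-2.31 to 1.66) and 1.32 points (-0.661 to 3.30). CTCF peaks lay at 43 Hormad1KO-only hotspots (6.47%, background 8.61%) and at 11.3% of Spo11KO-only hotspots, a difference of -4.84 points (-7.79 to -1.87). Counting just the central 1 kb of every peak, the CTCF difference was -2.40 points (-4.86 to 0.076). Over the 19 protein lists outside the rule, 9 differences from Spo11KO-only hotspots were called, 3 higher and 6 lower.

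**Figure D4:**
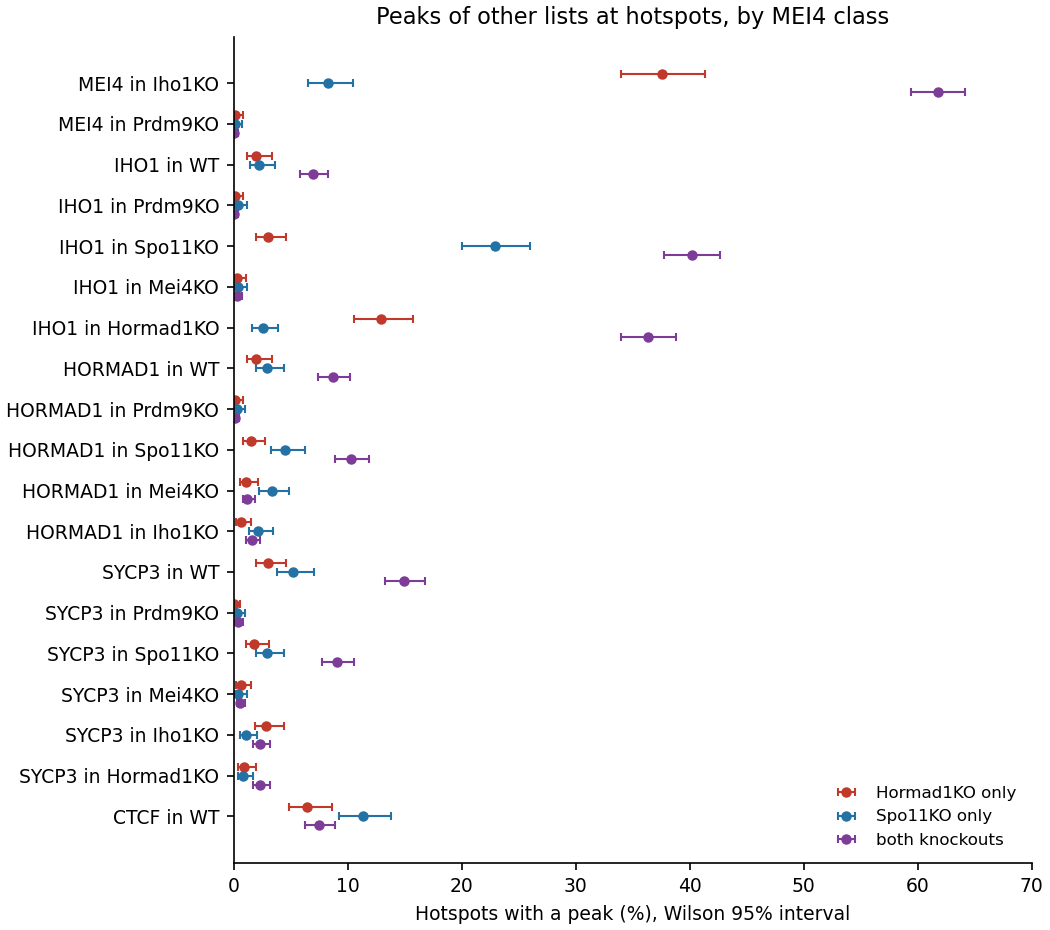
Share of hotspots with a peak (x axis, %, bars are Wilson 95% intervals) in each of the 19 protein lists outside the rule (y axis), for Hormad1KO-only, Spo11KO-only and both-knockout hotspots. Hormad1KO-only hotspots lie above Spo11KO-only hotspots for MEI4 in Iho1KO (37.6% against 8.24%) and IHO1 in Hormad1KO (12.9% against 2.53%), and below for IHO1 in Spo11KO (3.01% against 22.9%).

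Of the 18 MEI4, IHO1, HORMAD1 and SYCP3 lists outside the rule, 369 of the 665 hotspots (55.5%) were in none, against 68.7% of all autosomal hotspots. Another 213 were in 1, 53 in 2 and 30 in at least 3. No other list, CTCF peak or Hormad1KO DMC1 peak was found at 135 (20.3%), against 52.0% of all autosomal hotspots, 37.1% of Spo11KO-only hotspots, 5.47% of those with MEI4 in both knockouts and 72.2% of those without MEI4.

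The median wild-type DMC1 value was 926.5 for the members in at least 3 lists (20.5 to 18957.5), and 216.5 for the other 635 (20 to 10326.5), so the ranges overlapped. Of the 27 members in the strongest wild-type class, 13 were in at least 3 lists, compared with 17 of the other 638. Over all 1332 hotspots of the strongest class, 77.6% were in at least 3. MEI4 in Iho1KO lay at 16 of the 27 (59.3%, against 80.3% of the 1332) and IHO1 in Hormad1KO at 15 (55.6%, against 73.3%). Wild-type IHO1 lay at 10 (37.0%, against 36.0%), wild-type HORMAD1 at 10 (37.0%, against 40.5%) and wild-type SYCP3 at 11 (40.7%, against 63.2%).

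The strongest member lay 3.865 kb from Nedd1, which encodes a protein that recruits gamma-tubulin to spindles (chr10:92679601-92682158). Its DMC1 values were 18957.5 in the wild type and 8644.5 in Hormad1KO, the highest among the members in both lists. It was in 9 of the 18 lists, including wild-type IHO1, HORMAD1 and SYCP3, yet its nearest wild-type or Spo11KO MEI4 peak was 101.829 kb away. A second hotspot, 37.828 kb from Nedd1 (chr10:92645752-92648082), with values of 6911 and 4404, was in 8 lists.

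Other strong members fell inside genes. A hotspot in Plekha5, which encodes a pleckstrin-homology protein (chr6:140590069-140592610), had 9462.5 and 4886.5 and was in 8 lists. Like the Nedd1 hotspot, it had IHO1 and HORMAD1 in the wild type. One in Dnajc3, which encodes a co-chaperone of the endoplasmic reticulum (chr14:118966316-118968521), had 10326.5 and 1486. One in Sae1, which encodes a subunit of the SUMO-activating enzyme (chr7:16360694-16363353), had 7903 and 3719. The Dnajc3 and Sae1 hotspots were each in 1 other list, IHO1 in Hormad1KO, so high DMC1 values did not always come with many lists.

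High values in Hormad1KO were also found in a pair of genes close together on chromosome 1. A hotspot in Dcaf8, a gene for a substrate receptor of a ubiquitin ligase (chr1:172174224-172176811), had 7696.5 in the wild type and 7307.5 in Hormad1KO and was in 8 lists. One in Pex19, which encodes a chaperone of peroxisomal membrane proteins (chr1:172127544-172130013), had 7622.5 and 6928 and was in 4 lists. Neither had MEI4 in Iho1KO, and both had IHO1 in the wild type, Spo11KO and Hormad1KO. A hotspot in Ntn4, which encodes a netrin (chr10:93744448-93746681), had 5507 and 2539.5 and was in 8 lists. Of the 6 members in 8 lists, 2 were not strong and are given here after their values were seen. The hotspot at chr16:32635670-32637420 had 223.5 and 43.5, with no MEI4 in Iho1KO and 3 HORMAD1 and 4 SYCP3 lists. That at chr9:123716379-123718356, 0.778 Mb from the distal end, had 125 and 69.5 and was the member with MEI4 in Prdm9KO.

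The 3 weakest members were not in the Hormad1KO DMC1 list. They lay nearest Slc27a4, a fatty acid transporter gene (chr2:29819439-29821333, value 20), Cbx5, a heterochromatin protein gene (chr15:103181402-103183162, 20.5), and Arrdc2, an arrestin-domain gene (chr8:70833397-70835298, 24). The Slc27a4 hotspot had a CTCF peak and HORMAD1 in Mei4KO. The Cbx5 hotspot, 0.756 Mb from the distal end of chromosome 15, had a CTCF peak and SYCP3 in Spo11KO, Mei4KO and Iho1KO. The Arrdc2 hotspot was in no other list.

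The Hormad1KO-only hotspots were concentrated near the distal, non-centromeric ends of chromosomes. Mouse chromosomes have the centromere at one end, so the distal end is the far telomere. Ends were taken as the outermost feature in any list or in the gene table. Within the last 10 Mb lay 112 of the 665 (16.8%), against 8.67% of all autosomal hotspots and 13% of Spo11KO-only hotspots, a difference of 3.81 points (0.099 to 7.57). That difference was not called at the same wild-type strength (3.12, -0.985 to 7.22) or among the stronger 50% of hotspots (-0.171, -4.00 to 3.83). Hotspots with MEI4 in both knockouts were there at 2.99% (13.9 points lower, 11 to 17.0) and those without MEI4 at 8.68%.

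The 10 Mb window held opposite patterns. The last 5 Mb held 98 of the 665 (14.7%, 12.2 to 17.6), against 3.77% of all autosomal hotspots, 7 of the 752 Spo11KO-only hotspots (0.931%) and 1.4% of those with MEI4 in both knockouts. The differences were 13.8 points (11.1 to 16.7) and 13.3 points (10.7 to 16.3). Of the hotspots with wild-type MEI4, 4.91% lay in the last 5 Mb. Between 5 and 10 Mb lay 2.11% of the Hormad1KO-only and 12.1% of the Spo11KO-only hotspots, a difference of -10.0 points (-12.7 to -7.44). The share there was 4.9% of all autosomal hotspots and 5.26% of those without MEI4. It was 1.59% of those with MEI4 in both knockouts, not called different from the members (0.514 points, -0.616 to 2). The window of 5 to 10 Mb and the bins below were chosen with the values known.

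The share rose towards the end. Hormad1KO-only hotspots made up 37 of the 102 hotspots in the last 1 Mb (36.3%), 28 of 108 at 1 to 2 Mb (25.9%), 19 of 96 at 2 to 3 Mb (19.8%) and 12 of 96 at 3 to 4 Mb (12.5%). At 4 to 5 Mb they were 2 of 100, and beyond 40 Mb they were 447 of 8842 (5.06%). Spo11KO-only hotspots numbered 1, 0, 1 and 0 in the 4 outermost bins and made up 17.3% of hotspots at 8 to 10 Mb and 4.2% beyond 40 Mb. A rise towards the end was also seen for hotspots with wild-type MEI4. They made up 20.6% of hotspots in the last 1 Mb and 11.3% beyond 40 Mb. Over all hotspots of the last 1 Mb the median wild-type DMC1 value was 113, against 132 beyond 40 Mb.

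**Figure D5:**
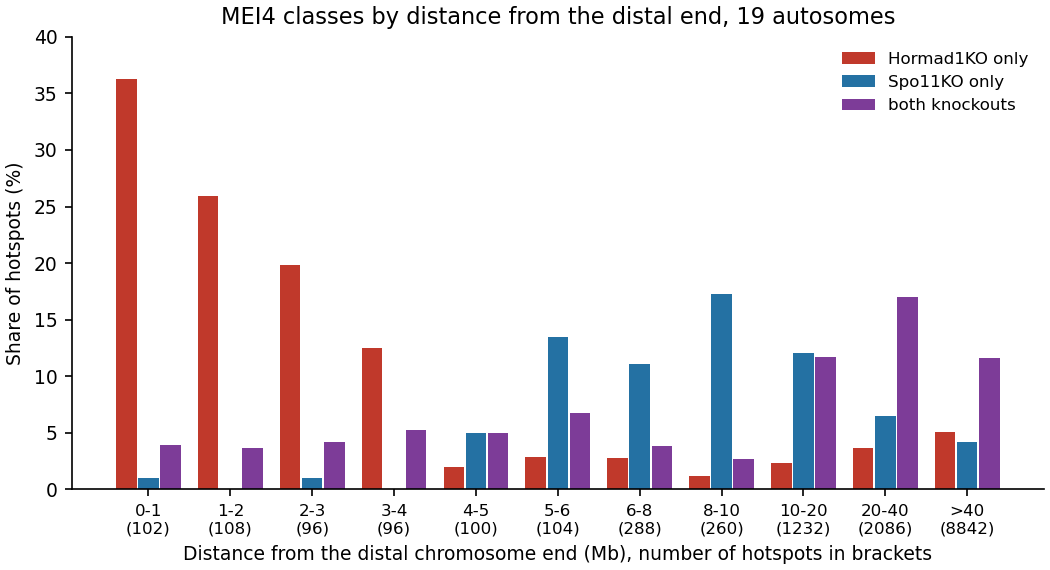
Share of the autosomal hotspots in each bin of distance from the distal chromosome end (x axis, Mb, hotspot number in brackets) that were Hormad1KO-only, Spo11KO-only or in both knockouts (y axis, %). The red bars (Hormad1KO only) are at 36.3% in the last 1 Mb and 2% at 4 to 5 Mb, and the blue bars (Spo11KO only) are at 0.98% and 5% in the same bins.

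The pattern recurred across chromosomes. Every one of the 19 autosomes had a Hormad1KO-only hotspot in its last 5 Mb, and on 18 these made up a larger share of hotspots there than elsewhere on the chromosome. Chromosome 8 was the exception, with 1 of 30. On 14 chromosomes no Spo11KO-only hotspot lay in the last 5 Mb. The distal ends of chromosomes 4, 9 and 13 are known for a minisatellite at which MEI4 and IHO1 accumulate. They held 20 of the 98 (20.4%), near their share of all hotspots in the last 5 Mb (105 of 502, 20.9%). On chromosome 12, 10 of the 17 distal hotspots were Hormad1KO-only, and on chromosome 19, 6 of its 11 Hormad1KO-only hotspots were distal.

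The lists used by the rule differed in the same region. Over all autosomal hotspots, MEI4 in Hormad1KO lay at 36.5% in the last 5 Mb and 26.7% elsewhere, and MEI4 in Spo11KO at 15.3% and 28.3%. Since membership needs the first and not the second, the distal share of members is tied to both. Wild-type MEI4, which membership also excludes, lay at 14.3% and 10.9% (3.47 points, 0.621 to 6.85). Of the lists outside the rule, 5 were split in the same way. DMC1 in Hormad1KO stood at 47.2% and 33.6% (13.6 points, 9.16 to 18) and IHO1 in Hormad1KO at 17.3% and 12.5% (4.84, 1.73 to 8.44). MEI4 in Iho1KO stood at 24.3% and 18.8% (5.48, 1.86 to 9.47) and SYCP3 in Iho1KO at 9.56% and 6.44% (3.12, 0.807 to 6.04). IHO1 in Spo11KO stood at 6.37% and 14.9% (-8.51, -10.4 to -5.95), the one lower share of the 5.

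The 98 distal members were also set against the 567 elsewhere, whose backgrounds are the splits of all hotspots just given. They were in the Hormad1KO DMC1 list at 80.6% against 70.2% (10.4 points, 0.793 to 18.1), had MEI4 in Iho1KO at 46.9% against 36.0% (11, 0.568 to 21.5) and IHO1 in Hormad1KO at 27.6% against 10.4% (17.1, 8.80 to 27). Their median wild-type DMC1 value was lower, 184.25 against 235.5. With the last 5 Mb left out, the differences of all members from Spo11KO-only hotspots were 25.6 points (20.3 to 30.7) for DMC1 in Hormad1KO, 27.9 (23.5 to 32.3) for MEI4 in Iho1KO and 7.99 (5.35 to 10.9) for IHO1 in Hormad1KO. SYCP3 in Iho1KO lay at 8.16% of the distal members and 1.94% of the rest, both below the shares over all autosomal hotspots given above, and its difference from Spo11KO-only hotspots without the last 5 Mb was 0.87 points (-0.472 to 2.46).

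At the centromeric end, 24 of the 665 (3.61%) lay within 10 Mb, against 7.23% of all autosomal hotspots, 3.72% of Spo11KO-only hotspots and 8.94% of hotspots without MEI4 (-5.33 points, -6.65 to -3.53). Within 5 Mb the last of these differences was -1.10 points (-2.14 to 0.444). Members per chromosome ran from 11 on chromosome 19 to 64 on chromosome 2, or from 2.70% of hotspots on chromosome 3 to 7.18% on chromosome 8. The median distance from a member to the nearest other member was 0.599 Mb, and 0.565 Mb for Spo11KO-only hotspots among themselves.

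Taken as a whole, Hormad1KO-only hotspots lay in genes more often than any other MEI4 class. The midpoint fell inside a protein-coding gene for 459 of the 665 (69.0%, 65.4 to 72.4), against 55.3% of all autosomal hotspots, 47.3% of Spo11KO-only hotspots (21.7 points, 16.6 to 26.6), 58.5% of those with MEI4 in both knockouts (10.5, 6.18 to 14.7) and 53.7% of those without MEI4 (15.4, 11.6 to 18.9). The gap to Spo11KO-only hotspots was 21.4 points (15.8 to 27) at the same wild-type strength and 23.5 (18.2 to 28.6) without the last 5 Mb. The gap to the both-knockout class was 6.09 points (0.593 to 11.6) at the same strength. Hotspots with wild-type MEI4 were in genes at 59.5%, and no interval was computed for that difference. In the strongest of 4 equal classes of wild-type DMC1 value, members were in genes at 60.9% and hotspots with wild-type MEI4 at 59.6%. In the next class the shares were 71.3% and 58.7%. Members in the last 5 Mb were in genes less often (58.2%) than the others (70.9%, -12.7 points, -23.3 to -2.68). Over all autosomal hotspots the shares were 58.4% in the last 5 Mb and 55.2% elsewhere, so the distal members were near their background.

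Gene ends gave a smaller contrast. Within 1 kb of either end of a coding gene lay 51 of the 665 (7.67%), against 13.3% of all autosomal hotspots, 16.8% of those without MEI4 (-9.15 points, -11.1 to -6.75, and -3.16 at the same wild-type strength) and 4.65% of Spo11KO-only hotspots (3.01, 0.513 to 5.63). The last difference was not called at the same strength (1.65, -1.45 to 4.74) or without the 1 kb margin (0.331, -1.39 to 2.13). A median of 9 coding genes lay within 500 kb of a Hormad1KO-only hotspot and 7 within 500 kb of a Spo11KO-only hotspot, with means of 12.4 and 9.21, against a median of 7 and a mean of 9.83 over all autosomal hotspots. The nearest CTCF peak was at a median of 20948 bp from Hormad1KO-only hotspots, near the 22375 bp over all autosomal hotspots, and 16292 bp from Spo11KO-only hotspots.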

How the data were processed

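Peak lists of 24 groups were used, 1 per antibody and genotype. Per the submitters' processing notes, Bowtie2, MACS2 and mm10 were used. Their settings, the peak thresholds and whether replicates were pooled are not given in the sources used here. The authors subtracted each protein's own knockout, as the design text of the series states, so all MEI4 lists share 1 control. DMC1 values are the authors' deposited signal, in steps of 0.5, and CTCF values are the authors' deposited score. Lists without values were used as positions. Depth is unknown.

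Hotspots and peaks were intersected at 1 bp or more in Python 3.11.15 with pandas 2.3.3, and the code was tested on simulated intervals. Shares have Wilson and differences Newcombe 95% intervals. No p-value was computed, because each group has 1 list. Standardised differences weight classes of wild-type DMC1 value by the members' counts, use classes with at least 10 comparison hotspots and have intervals from a normal approximation. Coding genes (20665) came from RefSeq, GRCm38.p6. Named hotspots were the 5 highest and 3 lowest by wild-type value, the 5 in most lists (6 tied at 8 lists, ordered by wild-type value, which kept the 4 strongest), the 5 highest in Hormad1KO, and the 3 largest rises and falls of rank, leaving out chromosome 18; 1 of these hotspots is not reported here. The 3 promoter hotspots were chosen after their values were seen, for holding a midpoint. Alternatives were a 50% overlap, a 1 kb peak centre, the stronger 50% of hotspots, a 1 kb exclusion margin, standardisation, the upper 50% of each readout list, other margins at gene and chromosome ends, and leaving out the last 5 Mb. The members and lists were chosen with earlier results of these data known.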

Additional observations from a re-analysis of the deposited data

How the results depend on the processing

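Of 27 differences, 18 were called the same way under every alternative run, and 161 of 180 comparisons with an alternative were kept. Of the 10 alternatives, 8 were planned; standardised positions and leaving out the last 5 Mb were chosen after seeing the data. The distal difference (10 Mb) from Spo11KO-only hotspots was -0.171 points among the stronger 50% of hotspots, a change of sign, and 3.12 points when standardised, no longer called; the cause was not tested. Its range over alternatives was -0.171 to 13.8 points. The difference in Hormad1KO DMC1 ranged from 20.5 to 39.2 points, MEI4 in Iho1KO from 9.57 to 31.8, IHO1 in Hormad1KO from 4.95 to 12.3, IHO1 in Spo11KO from -20.0 to -5.94 and position in coding genes from 20.7 to 23.5. Wild-type SYCP3 kept its call under 2 of 7 alternatives and SYCP3 in Iho1KO under 4 of 7. The upper 50% of a list holds fewer peaks, which lowers shares by construction. No paired analysis was possible because each group has 1 list and the lists carry no replicate numbers. Depth and thresholds are unknown for each list, so a missing peak is a missing call and not absent signal, and the Hormad1KO DMC1 list is shorter (5002 hotspots) than the wild-type list (13808).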
